A study of Rattus norvegicus with 4 samples.

Results

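The circadian clock genes described here are Per2, Nr1d1, Nr1d2, Bhlhe40, Bhlhe41, Dbp, Tef and Hlf. This set of 8 genes was taken by name, with earlier results of these data known. All probe sets annotated to these symbols were used, which gave 12 of the 8740 probe sets that are not array controls. Their transcripts were read on Affymetrix GeneChip arrays from female Rattus norvegicus, in the soleus, a calf muscle of mostly slow fibres that holds posture. Unloaded rats were kept from bearing weight on their hindlimbs for 10 h a day over 11 days (2 pools), and control rats stood and walked freely in their cages for the same 11 days (2 pools). Soleus RNA from 4 to 5 rats was mixed per pool and hybridised to 1 array, so spreads and p-values describe pools and not single animals. The sources used here do not give strain, age or the clock hour at which muscles were taken. A pool merges the daily phases of its rats into 1 value, and each group was sampled at day 11 alone. A shift of phase, a change of daily mean and unequal hours of collection between the groups therefore cannot be told apart.

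The circadian clock is a feedback loop of transcription that runs in most cells, skeletal muscle included. CLOCK and BMAL1 activate genes through E-box sequences, PER and CRY proteins accumulate and repress them, and the REV-ERB receptors (Nr1d1 and Nr1d2) repress Bmal1 in a second loop. The bHLH factors Bhlhe40 and Bhlhe41 (DEC1 and DEC2) also repress at E-boxes, and DBP, TEF and HLF, the PAR bZIP family, pass the rhythm to output genes through D-box sequences.

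In the unloaded soleus Per2 fell, Nr1d1 and Bhlhe41 rose, and the other 5 genes did not pass the test. Of the 10 member probe sets bright enough to be tested, 3 were higher, 1 was lower and 6 did not pass. Over all 5257 tested probe sets, 2.59% were called higher and 2.66% lower. The threshold was an adjusted p of 0.05 from limma, with Benjamini-Hochberg adjustment over all tested probe sets. The log2 fold changes given are unloaded minus control on the scale log2(signal + 9), with their standard error (SE), and folds were likewise taken after 9 was added to each signal. In whole muscle, fewer cells of a type and less RNA per cell cannot be told apart.

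The start regions of the genes that changed are shown first, because the clock factors named above act on such sequences. They are RefSeq windows of the rat assembly GRCr8, given 5′ to 3′ on the strand of the gene, and capitals mark the motifs found.
Per2, chr9:99496944-99497243, minus strand: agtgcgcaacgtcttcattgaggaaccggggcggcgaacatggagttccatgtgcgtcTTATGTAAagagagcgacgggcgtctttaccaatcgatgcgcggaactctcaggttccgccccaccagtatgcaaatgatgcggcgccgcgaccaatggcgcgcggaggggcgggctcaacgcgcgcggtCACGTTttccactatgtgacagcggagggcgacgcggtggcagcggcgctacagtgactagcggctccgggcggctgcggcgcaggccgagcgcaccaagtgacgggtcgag
Nr1d1, first window, chr10:84231763-84232062, minus strand: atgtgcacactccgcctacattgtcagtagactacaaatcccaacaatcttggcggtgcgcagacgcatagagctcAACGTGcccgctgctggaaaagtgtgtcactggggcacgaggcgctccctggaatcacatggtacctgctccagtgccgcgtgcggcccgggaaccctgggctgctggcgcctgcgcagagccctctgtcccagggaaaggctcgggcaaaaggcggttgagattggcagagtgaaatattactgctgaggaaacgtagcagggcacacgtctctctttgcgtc
Nr1d1, second window, chr10:84229405-84229704, minus strand: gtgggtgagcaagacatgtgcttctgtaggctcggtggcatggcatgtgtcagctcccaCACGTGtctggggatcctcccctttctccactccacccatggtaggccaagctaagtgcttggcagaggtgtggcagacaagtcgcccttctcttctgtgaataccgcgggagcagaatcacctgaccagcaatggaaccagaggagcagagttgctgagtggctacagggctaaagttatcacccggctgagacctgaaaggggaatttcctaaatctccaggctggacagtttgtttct
Bhlhe41, chr4:180569306-180569605, minus strand: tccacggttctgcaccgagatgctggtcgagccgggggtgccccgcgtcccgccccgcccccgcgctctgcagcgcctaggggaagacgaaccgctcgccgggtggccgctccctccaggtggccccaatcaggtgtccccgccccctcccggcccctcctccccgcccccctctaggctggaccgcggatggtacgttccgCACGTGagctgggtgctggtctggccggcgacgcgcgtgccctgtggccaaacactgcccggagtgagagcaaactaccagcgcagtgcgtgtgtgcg

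Both strands were searched for 5 motifs, which were chosen after the expression values were known. They were the E-box CACGTG, its variant CACGTT, the D-box TTATGTAA, the REV-ERB and ROR element TAGGTCA, and the cAMP response element TGACGTCA. No 2 of the matches found overlapped. The Per2 window held CACGTT at position -62 and TTATGTAA at position -192, counted from the gene start. In the first Nr1d1 window CACGTT lay on the opposite strand at position -174, where the printed capitals read its reverse complement, and in the second CACGTG lay at position -191. The Bhlhe41 window held CACGTG at position -48.

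The windows of Bhlhe40 and Tef, whose transcripts did not pass the test, also held CACGTG, at positions -220 and -198. The windows of Nr1d2 and Dbp held none of the 5 motifs. CACGTG was thus present in 4 of the 8 windows found for 7 of the genes, against 6.42% of all 33469 windows in the table. CACGTT was present in 2 of the 8, against 4.83% of all windows, and TTATGTAA in 1, against 0.893%. The element TAGGTCA (2.63% of all windows) and TGACGTCA (1.83%) were found in none of the 8. These matches describe the letters of the windows, and binding was not measured.

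Per2 is a core repressor of the loop that partners CRY proteins. Its probe set (AB016532_at) gave signals of 84.4 and 102.7 in the unloaded pools, against 174.5 and 170.1 in the control pools. Both unloaded pools lay below both control pools, and the closest unloaded and control pools were 1.60-fold apart. The means were 93.5 ± 12.9 signal units in unloaded and 172 ± 3.11 in control soleus (SD, n = 2 pools each). Per2 was thus 1.77-fold lower (log2 fold change -0.83, SE 0.14, limma adjusted p = 0.0138), which placed it 73rd by size among the 140 probe sets called lower. When 1 array is left out its group has a single pool, which is assumed to vary like the pools of the other group. In such fits the call of Per2 was lost each time, at -0.70 without unloaded pool 1 (limma adjusted p = 0.124), -0.96 without unloaded pool 2 (0.0569), -0.81 without control pool 1 (0.0981) and -0.85 without control pool 2 (0.0881). The adjusted p was 0.0598 when dim probe sets were kept in the test.

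Nr1d1 encodes REV-ERB alpha, a heme-binding nuclear receptor that represses Bmal1. Its probe set M25804_at read 256.1 and 269.1 in the unloaded pools and 181.0 and 180.1 in the control pools. A second probe set built on the same sequence record, M25804_g_at, read 344.1 and 380.1 in unloaded and 191.8 and 230.1 in control soleus. On both, the groups did not overlap, and since the 2 probe sets share a source sequence they are not independent readings.

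The first probe set was 1.43-fold higher in unloaded soleus (log2 fold change 0.52, SE 0.11, limma adjusted p = 0.0333). The second was 1.69-fold higher (0.76, SE 0.12, adjusted p = 0.0142). Means were 263 ± 9.19 in unloaded and 181 ± 0.636 in control pools on the first, and 362 ± 25.5 in unloaded and 211 ± 27.1 in control pools on the second (SD, n = 2 pools each). The mean of both probe sets gave 0.64 (SE 0.11, limma adjusted p = 0.00946).

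With 1 array left out the fold change of Nr1d1 kept its sign on both probe sets. On M25804_g_at it was 0.88 and still called without control pool 2 (adjusted p = 0.0463), and it was not called without unloaded pool 1 (0.83, adjusted p = 0.106), unloaded pool 2 (0.69, 0.136) or control pool 1 (0.63, 0.0940). On M25804_at no such fit made the call, at 0.55 without unloaded pool 1 (adjusted p = 0.178), 0.48 without unloaded pool 2 (0.196), 0.52 without control pool 1 (0.128) and 0.52 without control pool 2 (0.132). Both calls were lost without a filter (adjusted p = 0.0724 and 0.0605) and without a mean-variance trend (0.0886 and 0.0637).

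In the GRCr8 annotation the 3′ end of Nr1d1 shares 1061 bases with Thra, a thyroid hormone receptor gene. Thra was looked at for that reason, after its values were seen. Its brightest probe set, M31174_at, read 204.6 and 199.5 in unloaded against 193.8 and 189.9 in control pools (log2 fold change 0.07, SE 0.11, limma adjusted p = 0.777). X12744_at gave -0.33 (SE 0.20, adjusted p = 0.393), and the remaining Thra probe set was too dim to test.

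Nr1d2 encodes REV-ERB beta, the second receptor of the pair. It read 421.4 and 412.3 in unloaded and 420.8 and 399.5 in control pools, and the groups overlapped. The log2 fold change was 0.02 (SE 0.10, limma adjusted p = 0.932), with a 95% interval of -0.20 to 0.25. That interval lies below the point estimates of both Nr1d1 probe sets, but the difference between the 2 receptors was not tested.

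**Figure D1:**
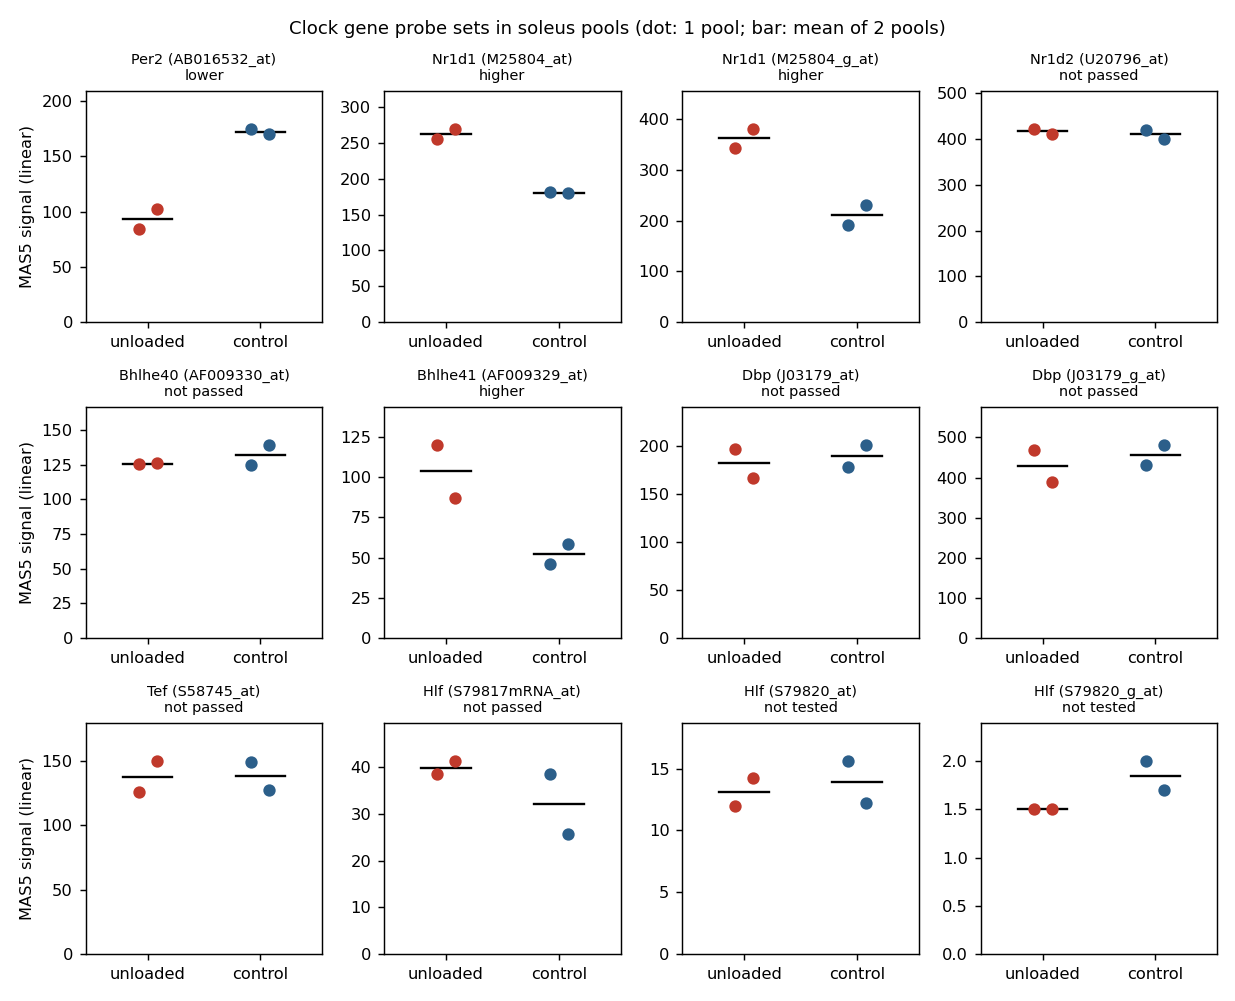
MAS5 signal (linear, each axis from 0) of the 12 clock probe sets, with unloaded pools on the left and control pools on the right of each panel. Each dot is 1 pool and each bar the mean of 2 pools. The groups are apart for Per2, both Nr1d1 probe sets, Bhlhe41 and the dimmest Hlf probe set, whose signals of 1.5 to 2.0 are far below the filter, and they overlap in the other panels.

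Of the paralogs Bhlhe40 and Bhlhe41, which both bind E-boxes, Bhlhe41 passed. It is read by probe set AF009329_at, which gave 119.9 and 87.3 in the unloaded pools and 45.8 and 58.5 in the control pools. Both unloaded pools lay above both control pools, and the means were 104 ± 23.1 in unloaded and 52.1 ± 8.98 in control soleus (SD, n = 2 pools each). The transcript was 1.83-fold higher in unloaded soleus (log2 fold change 0.87, SE 0.19, limma adjusted p = 0.0399).

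The call of Bhlhe41 was the one closest to the threshold. It was lost without unloaded pool 1 (0.66, limma adjusted p = 0.259), unloaded pool 2 (1.08, 0.0797), control pool 1 (0.72, 0.188) or control pool 2 (1.02, 0.101). It was also lost with quantile normalization (0.88, adjusted p = 0.0540), without a filter (0.137) and without a mean-variance trend (0.0852). Its sign was positive in all 12 alternatives run.

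Bhlhe40 read 125.3 and 126.3 in unloaded against 124.6 and 139.0 in control pools (AF009330_at), so that both unloaded values lay within the control range. The log2 fold change was -0.06 (SE 0.12, limma adjusted p = 0.839), with a 95% interval of -0.35 to 0.22. The difference between Bhlhe40 and Bhlhe41 was not tested.

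**Figure D2:**
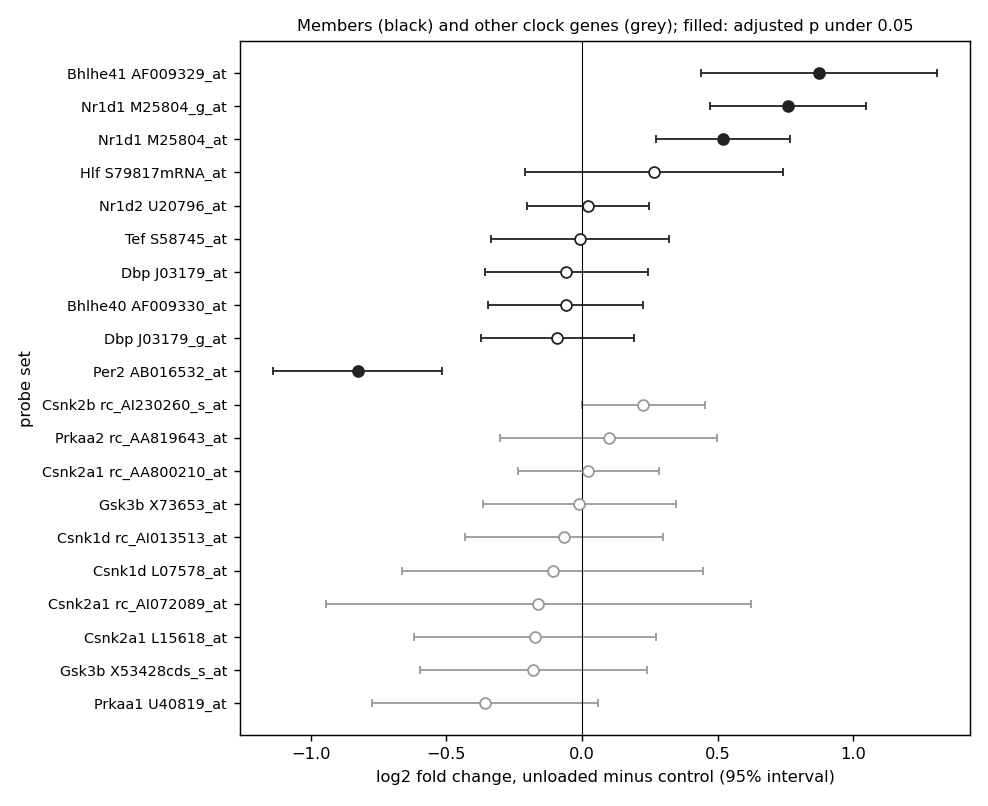
Log2 fold change, unloaded minus control, of the 10 tested clock member probe sets (black) and of the 10 tested probe sets of other clock genes (grey), each with its 95% interval. Filled points passed at an adjusted p under 0.05. Bhlhe41 and both Nr1d1 probe sets lie to the right of 0 and Per2 to the left, while the intervals of the other members include 0.

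The output factors of the PAR bZIP family did not pass. Dbp, which is strongly rhythmic in many tissues, has 2 probe sets built on 1 sequence record. J03179_at read 197.4 and 167.2 in unloaded and 178.6 and 201.1 in control pools, and J03179_g_at read 469.3 and 388.7 in unloaded and 431.7 and 480.6 in control pools. The groups overlapped on both, with unloaded pool 1 and control pool 2 high on each.

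The log2 fold changes of Dbp were -0.06 (SE 0.13, limma adjusted p = 0.858) and -0.09 (SE 0.12, adjusted p = 0.742). Their 95% intervals were -0.36 to 0.24 and -0.37 to 0.19. Tef, the thyrotroph embryonic factor, read 125.6 and 149.8 in unloaded against 149.3 and 127.2 in control pools (S58745_at). The pools of each group spanned nearly the same range, and the log2 fold change was -0.01 (SE 0.14, adjusted p = 0.987, 95% interval -0.33 to 0.32).

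Hlf, the hepatic leukemia factor, was dim throughout. Its brightest probe set, S79817mRNA_at, read 38.5 and 41.3 in unloaded and 38.6 and 25.7 in control pools (log2 fold change 0.27, SE 0.21, limma adjusted p = 0.527, 95% interval -0.21 to 0.74). This interval reaches further than those of Dbp and Tef and does not exclude a change as large as that of the first Nr1d1 probe set. The other Hlf probe sets were under the filter and not tested, S79820_at at 12.0 and 14.2 in unloaded against 15.6 and 12.2 in control pools, and S79820_g_at at 1.5 and 1.5 in unloaded against 2.0 and 1.7 in control pools.

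**Figure D3:**
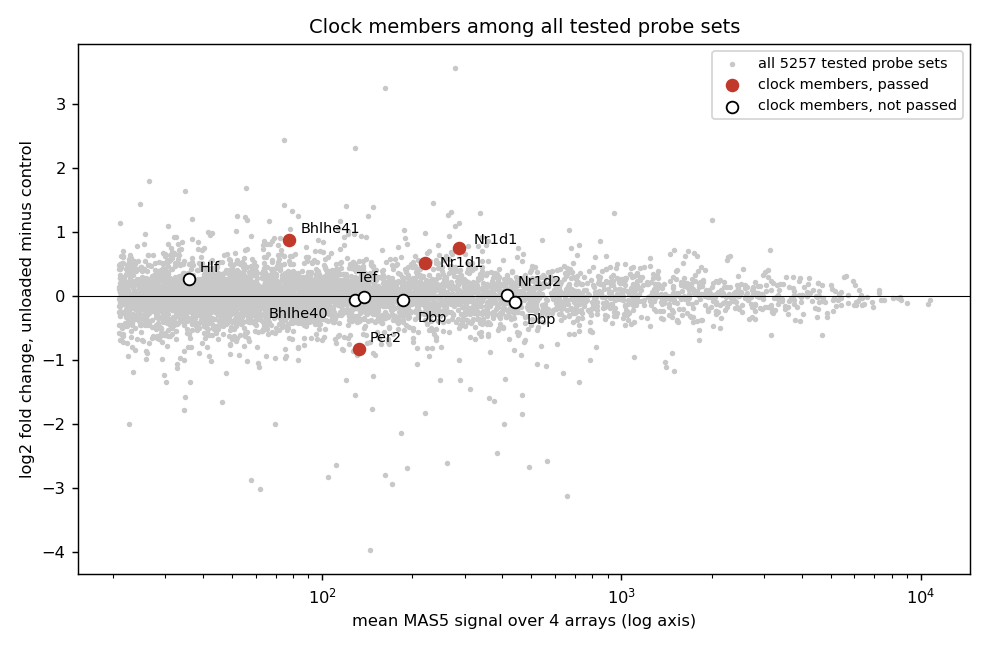
Log2 fold change, unloaded minus control, against the mean MAS5 signal over 4 arrays (log axis) for all 5257 tested probe sets (grey), with the 10 tested clock member probe sets marked. Filled red points passed. The called clock members lie between -0.83 and 0.87, inside the range of -3.96 to 3.56 seen over all probe sets.

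As a group the 10 tested member probe sets had a median log2 fold change of 0.01, against 0.00 over all tested probe sets. Their median absolute log2 fold change was 0.18, against 0.17 over all. Of the 10, 3 had both unloaded pools above both control pools and 1 had both below. Such separation was common on these arrays, at 25.5% of all tested probe sets above and 25.3% below. At 1.5-fold or more in all 4 pairs of an unloaded and a control pool, Per2 was the only member probe set, against 2.99% of all tested probe sets. With 2 pools against 2, an exact permutation test of a single value cannot give a two-sided p below 0.333, so the calls rest on the spread that limma shares across probe sets.

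**Figure D4:**
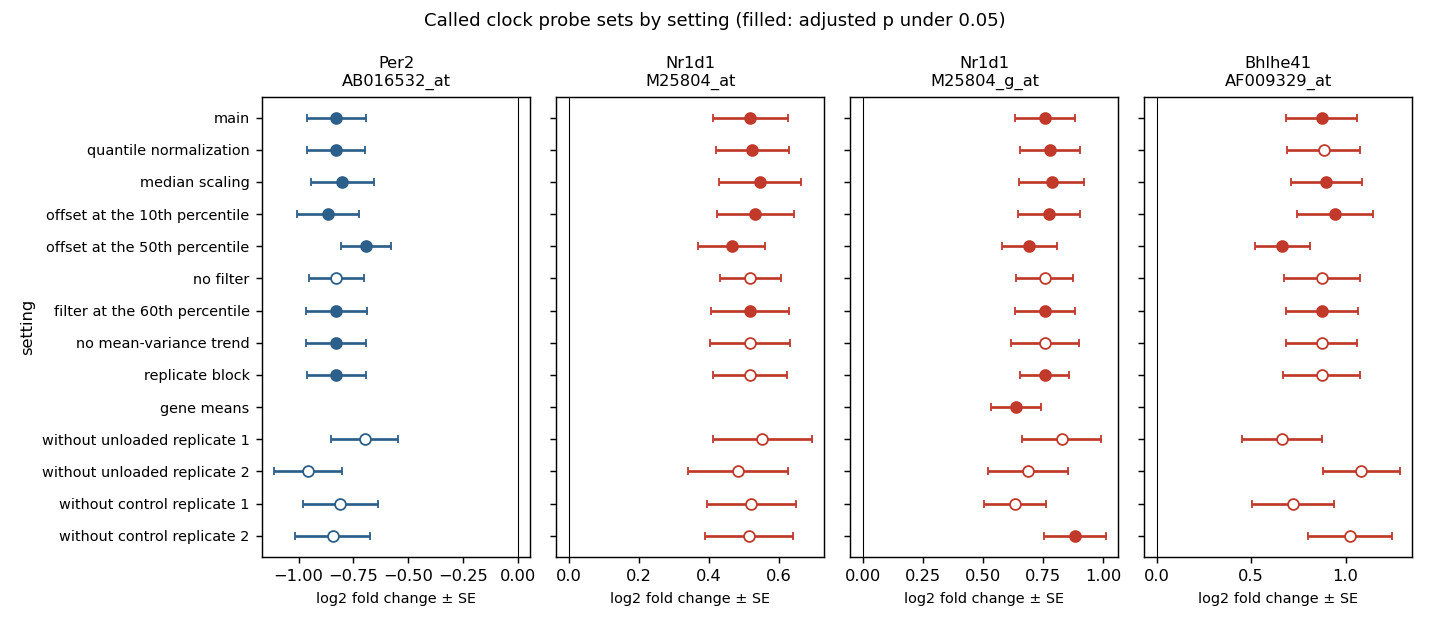
Log2 fold change ± SE, unloaded minus control, of the 4 called clock probe sets in the setting reported (top) and in each alternative. Filled points passed at an adjusted p under 0.05. Each estimate keeps its side of 0 in every setting drawn, and of the fits without 1 array, the one for Nr1d1 M25804_g_at without control pool 2 passed.

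The genes with the most similar pattern over the 4 arrays were found from log2 signals centred on their mean, by the root mean square (RMS) difference. For Per2 they were Hmox1 (RMS difference 0.03 log2), with 50.4 and 66.2 in unloaded and 111.8 and 105.4 in control pools, and Vegfa (0.04 log2). For the brighter Nr1d1 probe set they were Pde4a (0.04 log2) and Eif5 (0.05 log2), and for the dimmer one Nup210 and Tagln (0.02 log2 each). For Bhlhe41 they were Hes5 and Lbh (0.09 log2 each). Over 4 arrays many genes share a pattern, and these names are a description.

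Other parts of the clock were read by few probe sets. Of 29 further clock genes, 9 had a probe set with 1 symbol, and 6 of these had a probe set bright enough to test, 10 probe sets in all. None passed in limma, none had an unadjusted p under 0.05 (20.8% of all tested probe sets did), and their median log2 fold change was -0.09. Clock, Npas2, Per1, Per3, Cry1, Cry2, Rora and Nfil3 had no such probe set in the annotation used here. Bmal1, the partner of CLOCK and the main target of REV-ERB repression, read 10.3 and 6.2 in unloaded against 15.4 and 9.0 in control pools on its brighter probe set, and 2.8 and 6.9 in unloaded against 6.2 and 3.5 in control pools on the other. Both lay under the filter of 21.0 signal units, so no change of Bmal1 was detectable here. Rorb and Timeless were at 2.7 or below in every pool.

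The kinases that mark clock proteins for turnover gave small values. Csnk1d, which phosphorylates PER proteins, gave log2 fold changes of -0.11 and -0.07. The regulatory casein kinase subunit Csnk2b read 465.4 and 437.2 in unloaded and 380.5 and 388.6 in control pools (0.23, SE 0.10, limma adjusted p = 0.242). At the other end, Prkaa1, a catalytic subunit of the energy sensor AMPK, which phosphorylates CRY1, read 26.3 and 25.8 in unloaded and 33.8 and 38.2 in control pools (-0.36, SE 0.18, adjusted p = 0.305). Csnk2a1, Gsk3b and Prkaa2 lay between these.

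Within a list of genes reported as clock outputs in muscle or liver, 4 genes rose. Of 18 tested probe sets for 11 of its genes, 7 passed and all of them were higher (38.9%, against 5.25% of all tested probe sets in either direction), while 11 did not pass and the list median was 0.02. The 7 probe sets stand for Alas1, Pdk4, Ucp3 and Cyp27a1. Several of these genes were known to have changed in these arrays when the list was written, so its count is not independent evidence.

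Alas1 makes the first intermediate of heme, the ligand of the REV-ERB receptors. It read 538.7 and 372.2 in unloaded against 226.8 and 234.3 in control pools on J03190_at (log2 fold change 0.93, SE 0.17, limma adjusted p = 0.0190). On J03190_g_at it read 421.3 and 359.6 in unloaded against 230.7 and 216.1 in control pools (0.78, SE 0.12, adjusted p = 0.00977). Both unloaded pools were higher on both probe sets. Both calls were lost without a mean-variance trend (limma adjusted p = 0.0742 and 0.0539). That of J03190_at was also lost without a filter (0.0969). J03190_at was still called without unloaded pool 2 (1.19, adjusted p = 0.0201) but not without unloaded pool 1 (0.67, 0.112), control pool 1 (0.91, 0.129) or control pool 2 (0.95, 0.121). J03190_g_at was called in none of these fits, at 0.67 without unloaded pool 1 (adjusted p = 0.117), 0.89 without unloaded pool 2 (0.0545), 0.82 without control pool 1 (0.0657) and 0.73 without control pool 2 (0.0814).

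The other tested genes of the output list did not pass. Hk2, a hexokinase of muscle, came closest, at -0.59 on D26393exon_s_at (SE 0.14, limma adjusted p = 0.0514), with 121.6 and 150.9 in unloaded against 199.2 and 217.5 in control pools, while its other probe set gave -0.05. Cdkn1a, a cell-cycle inhibitor, gave -0.39 (SE 0.16, adjusted p = 0.225) on L41275cds_s_at, with both unloaded pools below, and -0.15 on the other probe set. Por, the reductase that serves cytochrome P450 enzymes, gave -0.34, -0.32 and -0.67 on 3 probe sets with the unloaded pools below the control pools on each (limma adjusted p from 0.0901 to 0.137). The cell-cycle kinase Wee1 gave -0.40 (SE 0.22, adjusted p = 0.346). Tcap, a sarcomere protein, gave 0.30 (SE 0.10, adjusted p = 0.144), and Myod1 -0.07 (SE 0.19, adjusted p = 0.881).

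Among genes through which hormones, cAMP and activity are reported to reach the clock, 3 fell. Of 26 tested probe sets for 11 genes, 7 were lower and none higher (26.9%, against 5.25% of all), with a median of -0.44. They stand for Fos, Dusp1 and Crem, and several of them read the same gene. This list too was written with earlier results of these data known, so its count is not independent evidence. Dusp1, a phosphatase that glucocorticoids and stress induce, gave -1.05, -0.995 and -1.31 on 3 probe sets, all of which passed (limma adjusted p from 0.000355 to 0.00470). Crem, whose ICER products repress cAMP response elements, read 106.7 and 109.9 in unloaded and 171.5 and 162.2 in control pools on S66024_g_at (-0.58, SE 0.12, limma adjusted p = 0.0319). Its other tested probe sets gave -0.58 and -0.49 and did not pass. The call of Crem was lost without unloaded pool 1 (adjusted p = 0.193), unloaded pool 2 (0.153), control pool 1 (0.144) or control pool 2 (0.115), with values from -0.62 to -0.55.

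The other genes of that list did not pass. Klf9, which is induced by the glucocorticoid receptor, gave 0.39 (SE 0.09, limma adjusted p = 0.0514) on its brighter probe set and 0.17 (SE 0.12, adjusted p = 0.460) on the other. Sgk1 gave -0.08 (SE 0.17, adjusted p = 0.856), and Nr3c1, the receptor itself, -0.05 and -0.37 on 2 dim probe sets. The activity-linked factor Egr1 gave -0.66 to -0.33 over 4 probe sets, none of which passed, although the unloaded pools lay below the control pools on each.

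**Figure D5:**
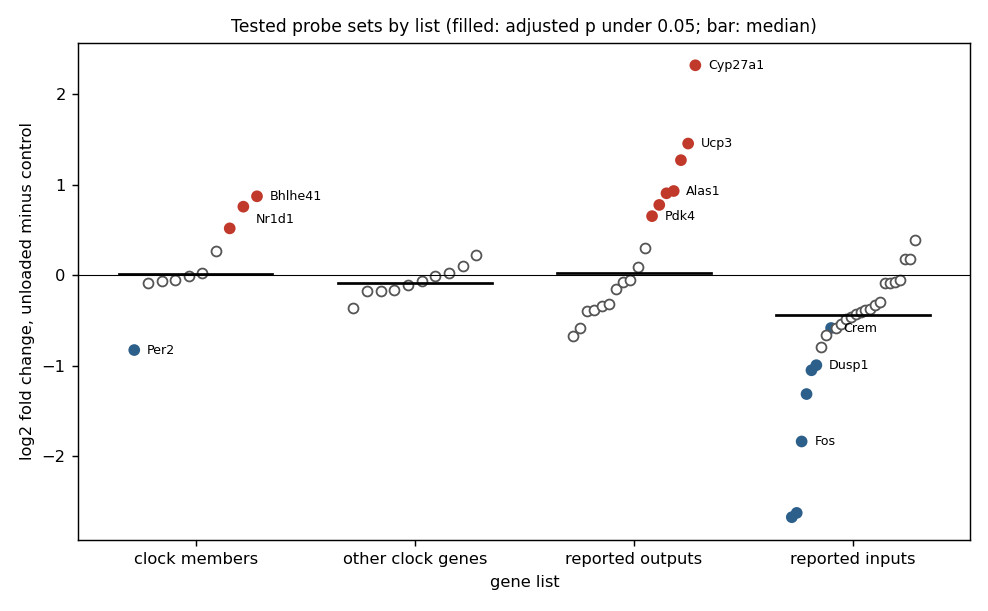
Log2 fold change, unloaded minus control, of each tested probe set in 4 gene lists: the clock members, the other clock genes, reported clock outputs and reported clock inputs. Filled points passed (red higher, blue lower) and bars are list medians. Calls among outputs are all above 0 and calls among inputs all below 0, while no other clock gene passed.

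The slow-fibre genes Myh7, Tnni1, Myl2 and Myl3 and the general muscle genes Ckm and Acta1 were bright in every pool, with signals from 4249.8 upward. None of their 9 probe sets passed in limma or had an unadjusted p under 0.05 (log2 fold changes -0.14 to 0.04). In a list of fast-fibre genes added after the values were seen, 7 of 12 tested probe sets were higher in unloaded soleus and none lower. That is 58.3%, against 2.59% of all tested probe sets called higher. The list summed to 22222.4 to 22477.4 in unloaded and 15015.8 to 16399.3 in control pools. Casq1 (log2 fold change 0.19), Myl1 (0.17), Myh4 (0.15), Myh1 (-0.04) and Pvalb (-0.14) did not pass. Without a filter 3 of the 12 were called, and without a mean-variance trend 2. The 7 called in the reported setting were Tnni2 (log2 fold change 1.04), Atp2a1 (0.73), Myl11 (0.71 and 0.72), Tnnt3 (0.68), Myh2 (0.63) and Tnnc2 (0.46). With 1 array left out 0 to 6 of these probe sets were called, the fewest without unloaded pool 2.

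Since clock genes are active in most cell types, markers of other cells were summed per pool. Smooth muscle markers (4 of 4 genes) summed to 2476.1 to 2647.9 in unloaded and 1856.0 to 2077.8 in control pools, and the hemoglobin and Alas2 probe sets (2 of 4 genes) to 5035.3 to 5131.5 in unloaded and 4256.1 to 4507.5 in control pools. Most of the smooth muscle sum was Acta2 (log2 fold changes 0.82, 0.40 and 0.25), of which the first passed (limma adjusted p = 0.0221). Myh11 gave -0.01 and 0.56, Tagln 0.50 and 0.22 and Cnn1 0.22, and none of these passed. Adipocyte markers (5 of 6) summed to 7888.0 to 8568.3 in unloaded and 9813.4 to 10302.4 in control pools, and endothelial markers (4 of 6) to 331.9 to 357.9 in unloaded and 382.8 to 387.6 in control pools. Most of the adipocyte sum was Lpl, a lipase that muscle also makes (log2 fold changes -0.50, -0.36 and -0.16). Of its probe sets the first passed (limma adjusted p = 0.0221). Cfd gave -0.61, with 109.0 and 105.9 in unloaded against 135.3 and 209.0 in control pools, and Lep gave -0.22 and -0.16. Plin1, too dim to test, read 5.8 and 12.9 in unloaded against 19.5 and 19.3 in control pools. Fabp4 went the other way at 0.31, with 393.1 and 441.0 in unloaded against 317.8 and 351.0 in control pools. Cfd, Lep and Fabp4 did not pass. Of the endothelial genes, Kdr gave -0.63 and Flt1 -0.23, while Pecam1 gave 0.02 and Vwf -0.03, and none passed or had an unadjusted p under 0.05. Leukocyte sums (5 of 7) overlapped, and Schwann cell and nerve sums (4 of 5) were 600.7 to 608.5 in unloaded and 628.4 to 686.5 in control pools. Most of the Schwann cell and nerve sum was Pmp22 on S55427_s_at (log2 fold change -0.14). Pmp22 gave 0.15 on its other probe set and Mbp gave 0.18, and none of these passed. No marker listed here was at 0 in any pool, but several lay under the filter, such as Itgam at 0.6 to 4.7. A signal above 0 therefore does not show that a cell type was detected. The part of these shifts, the fast-fibre genes included, in the clock gene values was not tested.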

How the data were processed

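The authors deposited 1 table of signal intensity values per probe set and array, made with MAS5 per the submitters' processing notes (version and settings not given in the sources used here). It holds 8799 probe sets, and 59 array controls were left out. Array medians were 33.9 to 35.6 and 2% trimmed means 150.25 to 150.26, so the arrays share a scale, which takes total mRNA signal as alike. The number of arrays limits the precision.

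Symbols came from the platform annotation, updated by gene ID to RefSeq (GRCr8): 6985 probe sets had 1 RefSeq symbol, 21 kept 1 older name, 308 several and 1426 none. Signals were taken as log2(signal + 9), 9 being the 25th percentile, and those whose mean reached 21.0 (40th percentile) entered limma 3.58.1 in R 4.3.3 (lmFit, eBayes with trend), unloaded against control. The 95% intervals use the moderated SE with 7.80 degrees of freedom. The fit was checked on simulated data whose spread did not depend on signal, so the check does not bear on the mean-variance trend. Alternatives were other scalings, offsets, filters, thresholds, no trend, gene means, the pool number as a block and each array left out. Figures used matplotlib 3.10.9.

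The members, lists, rules for named genes and tests were chosen with earlier results of these data known. Named by these rules were all member probe sets, the further clock genes with a probe set, called genes of the output and input lists, and the 2 nearest genes per called probe set. Some genes of the output and input lists that did not pass were also given, outside these rules. Pfkfb3, Junb, Creb1, Hsf1 and Nfkbia, which did not pass either, were left without values.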

Additional observations from a re-analysis of the deposited data

How the results depend on the processing

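The 4 called clock probe sets kept their sign in every alternative run, and the calls did not all hold. The number of clock probe sets called higher (3) was 0 without a filter and 0 without a mean-variance trend, and the number called lower (1) was 0 without a filter. With 1 array left out these numbers were 0 to 1 higher and 0 lower. Over all probe sets, 42 were higher and 48 lower without a filter, 52 and 61 without a trend, 226 and 232 at a threshold of 0.10, 22 to 43 and 38 to 55 with 1 array left out, and 100 and 88 of 3152 genes (3.17% and 2.79%) when probe sets were averaged per gene. Fewer arrays or more dim probe sets enter these fits by construction, and for the trend the cause was not tested. The other clock genes had 0 calls in each alternative.

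No label says that equal pool numbers mark a shared batch, and deviations of same-numbered pools correlated at -0.04. With the pool number as a block, 78 probe sets were higher and 87 lower, and 1 clock probe set was higher and 1 lower (Nr1d1 M25804_g_at, adjusted p = 0.0241, and Per2, 0.0399), while Bhlhe41 gave 0.0947 and Nr1d1 M25804_at 0.0689.

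Signs turned for members that did not pass. Tef was 0.0212 with median scaling. With 1 array left out, log2 fold changes ran from -0.126 to 0.113 for Tef, -0.172 to 0.0561 and -0.224 to 0.0422 for the 2 Dbp probe sets, -0.0134 to 0.0599 for Nr1d2 and -0.135 to 0.0129 for Bhlhe40. In the lists, Fos, Dusp1 on 2 of 3 probe sets, Ucp3 on AF035943_at and Cyp27a1 on Y07534cds_s_at passed in every alternative, whereas Pdk4 passed in 4 of 12 and Crem in 5 of 13.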
